A study of Mus musculus with 24 samples.

Results

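Exposure of cultured neonatal microglia to TNFa (tumour necrosis factor alpha) was compared with leaving the cells unstimulated. The comparison used 6 of the 24 RNA-seq libraries of the series, 3 per group, chosen by their labels. The first group held microglia of neonatal MRL/lpr mice that had spent 48 h in culture with 10% serum before a 6 h exposure to TNFa. The second group held cells of the same strain, age and culture that received no cytokine. Microglia, the resident macrophages of the brain, had been taken from enzymatically digested brains by magnetic selection for CD11b, an integrin subunit of myeloid cells. Both groups carry the lpr mutation of Fas, which disrupts this death receptor and gives the strain a lupus-like disease, so neither group stands for microglia of an unaffected strain. The TNFa dose and the number of mice behind a library are not given in the labels. The labels number the libraries 1 to 3 without saying whether a number stands for an animal, a litter or a culture, so p-values measure the spread between these samples. The other neonatal groups, exposed for 6 h to IFNg (interferon gamma), IFNa (interferon alpha), IL6 (interleukin 6) or a mixture of the cytokines, shared the fit, and the single cytokines are set beside TNFa at the end. The series concerns Ikbke, the gene of the kinase IKKepsilon, in the brain of lupus-prone mice.

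TNFa signals through 2 receptors, TNFR1 and TNFR2, the products of Tnfrsf1a and Tnfrsf1b. At TNFR1, adaptor proteins and ubiquitin ligases recruit the IKK kinases, which mark the IkappaB inhibitors for destruction and so free NF-kappaB dimers to enter the nucleus. NF-kappaB turns on cytokines, adhesion molecules and survival genes, and also its own inhibitors, which close the loop. Microglia are both a source and a target of TNFa in inflamed brain.

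The deposited values were read counts per gene, and levels are given here as CPM (each library's counts divided by its total after TMM scaling and put on the usual per-million basis) in libraries 1, 2 and 3 of a group. Total counts were 18024766, 15042709 and 19316994 in the TNFa libraries and 12589181, 15408841 and 17392820 in the unstimulated libraries. All list sums in this paragraph are in CPM of the library total, without TMM scaling. The microglial marker list summed to between 12330 and 13690 CPM in the TNFa libraries and between 12280 and 13590 CPM in the unstimulated libraries. Of its members, Tmem119 and P2ry12 were low, with 21.3 and 6.27 CPM on average with TNFa and 6.61 and 22.1 CPM without, while Csf1r averaged 2808 CPM with TNFa and 2186 CPM without. Libraries numbered 1 stood apart by astrocyte markers, whose 10 genes (0 called) summed to 411.5 CPM in the TNFa library 1 and 445.9 CPM in the unstimulated library 1, against 44.0 to 53.8 CPM in the libraries numbered 2 and 3. Libraries numbered 3 stood apart by interferon-stimulated genes, whose 28 genes summed to 13300 CPM in the TNFa library 3 and 9757 CPM in the unstimulated library 3, against 4033 to 5522 CPM in the other 4. Mural and fibroblast markers ranged from 182.2 to 861.9 CPM in the TNFa libraries and from 155.9 to 712.7 CPM in the unstimulated libraries, with 0 of the list's genes called. Neutrophil and neuron markers, with 0 genes of either list called, were also highest in the libraries numbered 1. The 11 neutrophil markers summed to 100.2, 25.8 and 12.17 CPM in the TNFa libraries and 163.2, 56.9 and 12.5 CPM in the unstimulated libraries. These sums were lower with TNFa in pairs 1 and 2 and near equal in pair 3. The 9 neuron markers summed to 57.4, 5.52 and 13.5 CPM in the TNFa libraries and 70.1, 17.6 and 14.32 CPM in the unstimulated libraries. The 8 monocyte markers summed to 158.0 to 249.7 CPM in the TNFa libraries and 40.2 to 75.1 CPM in the unstimulated libraries, through Itga4, an integrin subunit that was higher by 2.25 ± 0.17, while Ly6c2 and Ccr2, which define the type, were at or under 2.02 CPM in every library. The 10 border macrophage markers summed to 1803 to 1968 CPM in the TNFa libraries and 1872 to 2107 CPM in the unstimulated libraries. Of their 9 tested genes, 2 were higher and 1 lower. Oligodendrocyte, oligodendrocyte precursor and endothelial lists summed to at most 129.8, 73.45 and 49.75 CPM in any TNFa library. In the unstimulated libraries their highest sums were 155.9, 90 and 57.84 CPM. T cell, natural killer cell, B cell, dendritic cell and erythroid lists summed to at most 13.9 CPM in any TNFa library and 17.2 CPM in any unstimulated library. The part of these other cells in the results was not tested beyond leaving out each library number. In bulk samples, fewer cells of a type and less RNA per cell cannot be told apart.

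TNFa changed 2542 of 14626 genes tested (17.4%; edgeR quasi-likelihood test with the library number as a block, Benjamini-Hochberg adjusted p under 0.05). Of these, 1313 were higher (8.98% of genes tested) and 1229 were lower (8.4%) with TNFa. The higher genes reached further: 199 were at least 4-fold higher and 72 at least 4-fold lower, and 95 were at least 8-fold higher and 19 at least 8-fold lower. The change had the same sign in all 3 same-numbered pairs for 2538 of the 2542 genes. Of all 14626 genes tested, 3805 were higher and 4021 lower in all 3 pairs. The calls came from a fit blocked on these pairs, which favours genes of like sign. The values of the groups did not overlap for 2065 of the called genes, against 3698 of all genes tested (25.3%). Without the block, the same test called 1184 genes, 640 higher and 544 lower. Scaled by total counts alone, it called 1048 genes higher and 1563 lower, so that 40.1% of the calls were higher in place of 51.7%, and the median log2 fold change of all genes was -0.09 in place of -0.02. Without the libraries numbered 1 of every group 1460 genes were called, and without those numbered 3, 1662. Of 427 genes tested from 23 function lists, 155 were higher and 48 lower. These lists were drawn up with earlier results of these data known, so their counts are descriptions. The counts are to be read against the shares of all genes tested, 8.98% higher and 8.4% lower.

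**Figure D1:**
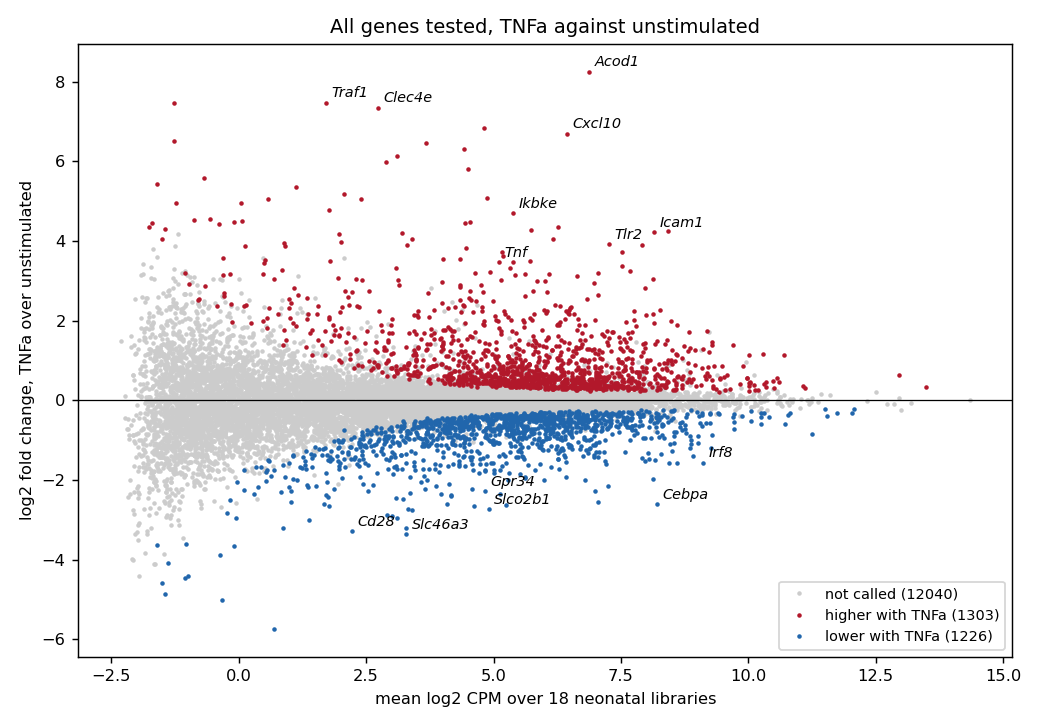
Log2 fold change (TNFa over unstimulated, vertical axis) against the mean log2 CPM over 18 neonatal libraries (horizontal axis) for each gene tested, red where higher and blue where lower with TNFa at an adjusted p under 0.05. The 57 genes with 0 reads in a group are not drawn; the tallest changes point upward, led among well-expressed genes by Acod1 at 8.25, and the deepest labelled falls are Slc46a3 at -3.36 and Cd28 at -3.29.

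Ikbke (ENSMUSG00000042349, chr1:131254343-131279606, minus strand, mm10) was among the genes most raised by TNFa. It stood at 162, 193 and 221 CPM with TNFa, against 5.87, 6.63 and 9.67 CPM without. The lowest TNFa library lay far above the highest unstimulated one, and the pairs differed by 4.76, 4.84 and 4.50 on the log2 scale. The fitted change was 4.70 ± 0.21 (log2, SE; 26.0-fold; edgeR adjusted p 1.76e-10). Its product shares a kinase fold with TBK1 and phosphorylates the interferon regulatory factors IRF3 and IRF7. Among 18 genes of the TBK1-IKKepsilon axis, 5 were higher and 1 lower, with a median of 0.44; without the block or without unstimulated library 2, 3 were higher, and with only the TNFa and unstimulated libraries in the fit, 11. Tank, an adaptor that binds both kinases, was higher by 2.01, and Tbk1 itself by 0.48. Irf1, a transcription factor of inflammatory and interferon genes, stood at 122, 167 and 231 CPM with TNFa and 33.9, 37.3 and 57.4 CPM without, a change of 2.01 ± 0.38 (edgeR adjusted p 0.00314). Without the libraries numbered 3 of every group the Irf1 change was 2.04 with an adjusted p of 0.10. Irf8, a transcription factor needed for microglial development in mice, was the member that fell, to 103, 127 and 121 CPM with TNFa, against 267, 361 and 423 CPM without. Irf3 (0.10), Irf5 (0.17) and Irf7 (0.08) did not pass the test.

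The receptors differed. Tnfrsf1a, which encodes the widely expressed TNFR1, stood at 153, 190.2 and 224 CPM with TNFa and 158, 195 and 199 CPM without. The groups overlapped, and the change of 0.04 ± 0.12 lay within its error (edgeR adjusted p 0.896; -0.04 with total-count scaling, -0.12 without TNFa library 3 and -0.02 without unstimulated library 1). Tnfrsf1b, which encodes TNFR2 and is found mainly on immune and endothelial cells, stood at 910, 1175 and 1218 CPM with TNFa, against 387, 481 and 522 CPM without. Its groups did not overlap, and the change was 1.25 ± 0.29 (edgeR adjusted p 0.0106), with an adjusted p of 0.0555 when unstimulated library 2 was left out, and of 0.102 and 0.122 without the libraries numbered 1 and 3 of every group. Fas, the gene that carries lpr, was low, with 134 reads in the TNFa libraries together and 35 in the unstimulated libraries. It had 2.95, 2.19 and 2.03 CPM with TNFa and 1.29, 0.181 and 0.674 CPM without. The groups did not overlap, but the change of 1.95 ± 0.65 (edgeR adjusted p 0.0467) lost its call when any one of the 6 libraries was left out (adjusted p 0.0574 to 0.195) and without the block (0.343).

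Downstream of the receptors, 13 of 27 genes of receptor-proximal signalling were higher and 2 lower (median 0.31). Traf1, an adaptor that is itself a classical NF-kappaB target, led them at 37.9, 51.2 and 66.3 CPM with TNFa, against 0.258, 0.422 and 0.169 CPM without, where the unstimulated libraries held 14 reads in all. Birc3, the ubiquitin ligase cIAP2, stood at 134, 151 and 204 CPM with TNFa and 11.7, 17.303 and 13.8 CPM without. Neither gene's groups overlapped, and the changes were 7.47 ± 0.53 and 3.51 ± 0.20. Cflar, which encodes the caspase-8 inhibitor c-FLIP, was higher by 1.73, Birc2 by 1.13, Traf2 by 1.11 and Traf3 by 1.07. Adam17, the protease that sheds TNF and its receptors, was higher by 0.98. The scaffold genes of the receptor complex did not pass the test: Tradd changed by -0.13, Ripk1 by -0.09 and Fadd by 0.11. The members that fell were Otulin (-0.85), a deubiquitinase of linear ubiquitin chains, and Map3k8 (-0.69), the kinase TPL2.

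The NF-kappaB list had the highest share of raised members of the 23. Of its 20 genes, 17 were higher and 0 lower, with a median of 1.59, and 19 were higher in all 3 pairs. Some of the genes listed as feedback inhibitors led the list. Tnip3, of the same gene family as Tnip1, stood at 122, 157 and 174 CPM with TNFa and 6.90, 6.75 and 6.58 CPM without. Nfkbie, which encodes IkappaBepsilon, stood at 206, 252 and 252 CPM with TNFa and 12.3, 13.02 and 10.96 CPM without. Nfkbia, which encodes IkappaBalpha, stood at 545, 648 and 582 CPM with TNFa and 52.9, 59.0 and 59.7 CPM without. All of these separated the groups widely with little spread among libraries, and the changes were 4.47 ± 0.37, 4.29 ± 0.19 and 3.36. Tnip1 (2.61) and Tnfaip3 (2.20), the gene of the ubiquitin-editing enzyme A20, were also higher. Of the subunits, those of the non-canonical pathway changed more than the others: Relb was higher by 2.99 and Nfkb2 by 2.94, against 1.68 for Nfkb1, 0.81 for Rela and 0.61 for Rel, differences between genes that were not tested. The IKK genes changed little: Chuk was higher by 0.44, while Ikbkb (0.26) and Ikbkg (0.15) did not pass. Without the block 13 members of the list were higher, and without the libraries numbered 1, 2 or 3 of every group 14, 14 and 16.

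**Figure D2:**
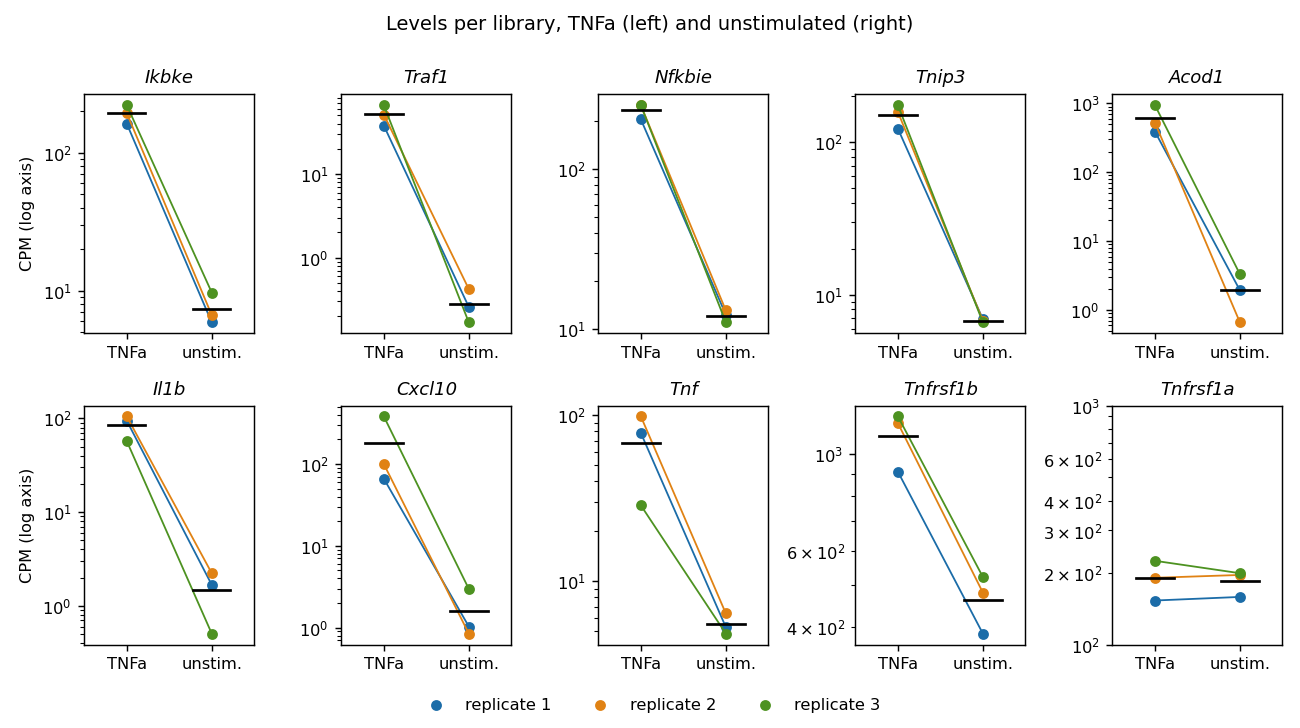
CPM (log axis, a scale of its own in each panel) of 10 genes in the TNFa libraries (left) and unstimulated libraries (right), with the replicates coloured and joined by number and the group mean as a bar. In all panels but Tnfrsf1a the lowest TNFa value lies above the highest unstimulated value; in the third TNFa library Tnf and Il1b are lowest and Cxcl10 is highest.

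Promoter sequences are shown for 6 of these raised genes because a match to the NF-kappaB consensus lies in their last 250 bases before the start annotated in RefSeq. Sequences were those of RefSeq (build GRCm38.p6), read for 50 of the 62 genes named by rule, and both strands were searched. Of the 49 raised genes among the 62, 41 were read. Cd14 and Cd74 were among those not read. A gene not read does not mean that RefSeq lists no promoter for it. The consensus occurred in 10 of 41 raised genes with a promoter read and in 0 of 8 lowered ones, against 3.75% of all 27025 promoters of this length. Only 8 of the 12 lowered genes were read. At the share of all promoters these are too few for 0 matches to set them apart from other genes. Over all genes raised by TNFa it occurred in 89 of 1059 promoters found (8.4%). The AP-1 motif TGANTCA occurred in 4.82% of these against 6.87% of all promoters. The 27025 promoters include those of genes not tested here, and most named genes were chosen by the size of their change. Shares are not given for all genes tested, uncalled genes or lowered genes. Their promoters were found for 74.4%, 73.4% and 78.0%, under the 80% required, so raised genes were not compared with other genes tested. A match is a description of the letters and not evidence of binding, and Ikbke held no match in its window. The promoters read 5′ to 3′ on the gene's strand and end at the base before the start, with the NF-kappaB matches in capitals. Cxcl10 lies on the minus strand (chr5:92348890-92349139), with matches from -159 to -150 and from -103 to -94, Cxcl3 on the plus strand (chr5:90785851-90786100), Tnip3 on the plus strand (chr6:65590148-65590397), Nfkbie on the plus strand (chr17:45555450-45555699), Tlr2 on the minus strand (chr3:83841609-83841858) and Sod2 on the plus strand (chr17:13007589-13007838). The GENCODE M21 annotation, used for gene coordinates, starts Tnip3, Sod2 and Tlr2 further upstream, at 65525313, 13006846 and 83841767. The windows of Tnip3 and Sod2 lie inside those gene spans, and that of Tlr2 does in part. In Cxcl3 and Tlr2 the capitals cover 2 overlapping matches.
Cxcl10: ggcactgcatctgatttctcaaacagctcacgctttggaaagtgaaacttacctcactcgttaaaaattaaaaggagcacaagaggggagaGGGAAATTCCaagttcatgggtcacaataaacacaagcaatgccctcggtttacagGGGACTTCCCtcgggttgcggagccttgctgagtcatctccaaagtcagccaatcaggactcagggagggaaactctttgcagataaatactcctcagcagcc
Cxcl3: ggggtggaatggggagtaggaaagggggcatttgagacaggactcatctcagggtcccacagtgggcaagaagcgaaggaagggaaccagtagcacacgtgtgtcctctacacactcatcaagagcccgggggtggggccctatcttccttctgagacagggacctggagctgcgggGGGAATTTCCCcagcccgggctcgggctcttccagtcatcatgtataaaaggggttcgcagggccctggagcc
Tnip3: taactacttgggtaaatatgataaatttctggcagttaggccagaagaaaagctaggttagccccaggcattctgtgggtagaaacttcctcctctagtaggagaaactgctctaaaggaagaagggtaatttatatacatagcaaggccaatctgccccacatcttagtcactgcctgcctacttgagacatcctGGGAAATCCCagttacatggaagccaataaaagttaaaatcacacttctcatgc
Nfkbie: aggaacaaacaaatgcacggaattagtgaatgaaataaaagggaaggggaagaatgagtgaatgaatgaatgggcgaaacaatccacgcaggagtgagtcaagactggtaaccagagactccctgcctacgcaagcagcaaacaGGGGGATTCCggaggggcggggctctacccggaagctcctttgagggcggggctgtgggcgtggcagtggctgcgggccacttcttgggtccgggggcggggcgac
Tlr2: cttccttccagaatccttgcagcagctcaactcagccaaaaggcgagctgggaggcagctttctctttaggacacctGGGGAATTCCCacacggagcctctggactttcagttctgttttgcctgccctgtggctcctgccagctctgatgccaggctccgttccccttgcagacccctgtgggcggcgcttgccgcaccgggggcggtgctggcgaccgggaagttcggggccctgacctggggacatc
Sod2: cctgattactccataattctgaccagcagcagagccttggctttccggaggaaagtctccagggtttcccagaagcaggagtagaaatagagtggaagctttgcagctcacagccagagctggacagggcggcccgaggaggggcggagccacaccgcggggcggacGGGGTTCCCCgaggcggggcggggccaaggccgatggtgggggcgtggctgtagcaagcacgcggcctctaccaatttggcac

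Cytokine genes were raised with no member lower: 11 of 22 passed upward, and 4 were too low to test (median of the tested 2.13). Without the block 8 passed, and without the libraries numbered 1 of every group, TNFa library 3 or any 1 unstimulated library, 7. Il1b, the gene of interleukin 1 beta, stood at 94.7, 105 and 57.4 CPM with TNFa and 1.68, 2.23 and 0.506 CPM without. Tnf itself stood at 77.9, 98.1 and 28.6 CPM with TNFa and 5.29, 6.39 and 4.83 CPM without. Both genes separated the groups, and in both the third TNFa library was the lowest of its group. The changes were 5.99 ± 0.31 (edgeR adjusted p 5.09e-10) for Il1b and 3.47 ± 0.29 (1.14e-06) for Tnf. Il1a was higher by 2.09, and so were the antagonist Il1rn, by 1.90, and Tgfb1, by 0.52. Il12b, the p40 subunit of interleukins 12 and 23, had 35 reads in the TNFa libraries and 0 in the unstimulated, at least 10.53-fold higher, with the 0 set to 3 counts summed over the 3 libraries. Its call (edgeR adjusted p 0.0373) was lost without any of the TNFa libraries 2 and 3 or the unstimulated libraries 1, 2 and 3 (0.0524 to 0.128) and without the block (0.0617). Il6 had 17 reads in the TNFa libraries and 0 in the unstimulated, at least 5.11-fold higher (edgeR adjusted p 0.0385). Il18 (0.18) and Csf1 (0.15) did not pass.

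Of 23 chemokines, 12 were higher and 1 lower, and 2 were too low to test (median of the tested 1.74). Cxcl10, which draws T cells through CXCR3, stood at 66.3, 100.2 and 382 CPM with TNFa and 1.03, 0.844 and 2.98 CPM without. Cxcl3, a neutrophil attractant in the group of Cxcl1 and Cxcl2, stood at 5.61, 6.63 and 4.44 CPM with TNFa and 0.258, 0 and 0 CPM without, from 304 and 4 reads. Cxcl2 stood at 41.6, 51.0 and 14.4 CPM with TNFa and 1.48, 0.603 and 0.393 CPM without. None of these overlapped between groups; the third TNFa library was the highest for Cxcl10 and the lowest for Cxcl2 and Cxcl3. The changes were 6.70 ± 0.96, 6.52 ± 1.14 and 5.35 (edgeR adjusted p 0.000548, 0.00054 and 4.24e-05). The Cxcl10 change was 5.51 without TNFa library 3 and 7.41 without unstimulated library 3. The Cxcl3 change was 9.35 without unstimulated library 1, which held all 4 unstimulated reads, 7.46 without TNFa library 1 and 5.51 without TNFa library 2. Cxcl16 was higher by 1.90 and Ccl9 by 1.21, both from high levels. Ccl3 (0.50) and Ccl4 (0.45), both made by resting cultured microglia here at 65.2 to 91.8 and 45.8 to 65.2 CPM, did not pass. Cxcl14 was the member that fell, by 0.57 on the log2 scale. Ccl2 (1.61) and Ccl12 (2.90) were called higher, but they are related genes, and how reads were assigned to each was not given. Without the libraries numbered 1 or 2 of every group 7 and 6 chemokines were higher, and without those numbered 3, 13.

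Genes of contact with lymphocytes were raised too: 8 of 15 costimulatory and adhesion genes were higher and 0 lower (12 tested, median 1.59). Icam1, the ligand of LFA-1, stood at 643, 859 and 864 CPM with TNFa and 41.3, 41.9 and 43.3 CPM without. Cd40, the receptor of CD40 ligand on T cells, stood at 27.0, 36.8 and 52.4 CPM with TNFa and 0.194, 0.844 and 0.955 CPM without. Neither overlapped, and the changes were 4.22 ± 0.29 (edgeR adjusted p 5.67e-07) and 5.82 ± 0.49 (4.06e-06). Icosl was higher by 2.89, Vcam1 by 2.74 and Cd274, which encodes PD-L1, by 1.48. Cd80 (1.65), Cd86 (0.52) and Cd83 (-0.02) did not pass.

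Among enzymes and other effectors, 10 of 23 were higher and 1 lower (22 tested, median 1.29). Acod1, which makes itaconate in activated macrophages, stood at 391, 524 and 942 CPM with TNFa and 1.94, 0.663 and 3.32 CPM without, a change of 8.25 ± 0.66 (edgeR adjusted p 6.47e-06). Ptges, the inducible prostaglandin E synthase, stood at 236, 298 and 393 CPM with TNFa and 4.71, 2.05 and 3.65 CPM without, a change of 6.46 ± 0.40. For Acod1 every TNFa library lay above every unstimulated one by a wide margin, while Ptges was chosen among genes whose groups did not overlap. Ptgs2, the cyclooxygenase upstream of Ptges, did not pass (15.7, 4.44 and 17.7 CPM with TNFa and 7.35, 1.57 and 5.34 CPM without). Nos2, the inducible nitric oxide synthase, had 62 reads in the TNFa libraries and 0 in the unstimulated, at least 18.6-fold higher. Its call (edgeR adjusted p 0.0184) was lost without TNFa library 3 (0.0987) and without unstimulated library 3 (0.101). Mmp14 was higher by 4.35, Mmp9 by 2.39, Ch25h, which makes 25-hydroxycholesterol, by 3.19 and the NADPH oxidase gene Cybb by 1.17. Plau fell by 0.57.

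Of 17 survival genes, 11 were higher and 1 lower (median 0.64). Sod2, the mitochondrial superoxide dismutase, stood at 624, 752 and 708 CPM with TNFa and 73.7, 80.1 and 65.9 CPM without. The groups lay far apart with little spread, and the change of 3.25 ± 0.13 had an edgeR adjusted p of 1.39e-11. Bcl2a1a (2.06), Bcl2a1d (1.94) and Mcl1 (1.39), anti-apoptotic relatives of Bcl2, were higher, though the Bcl2a1 genes are near-identical copies. Bcl2l1, which encodes BCL-XL, fell by 0.43, and Bcl2 (0.08) and Bax (0.07) did not pass. Without the block 6 members were higher.

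**Figure D3:**
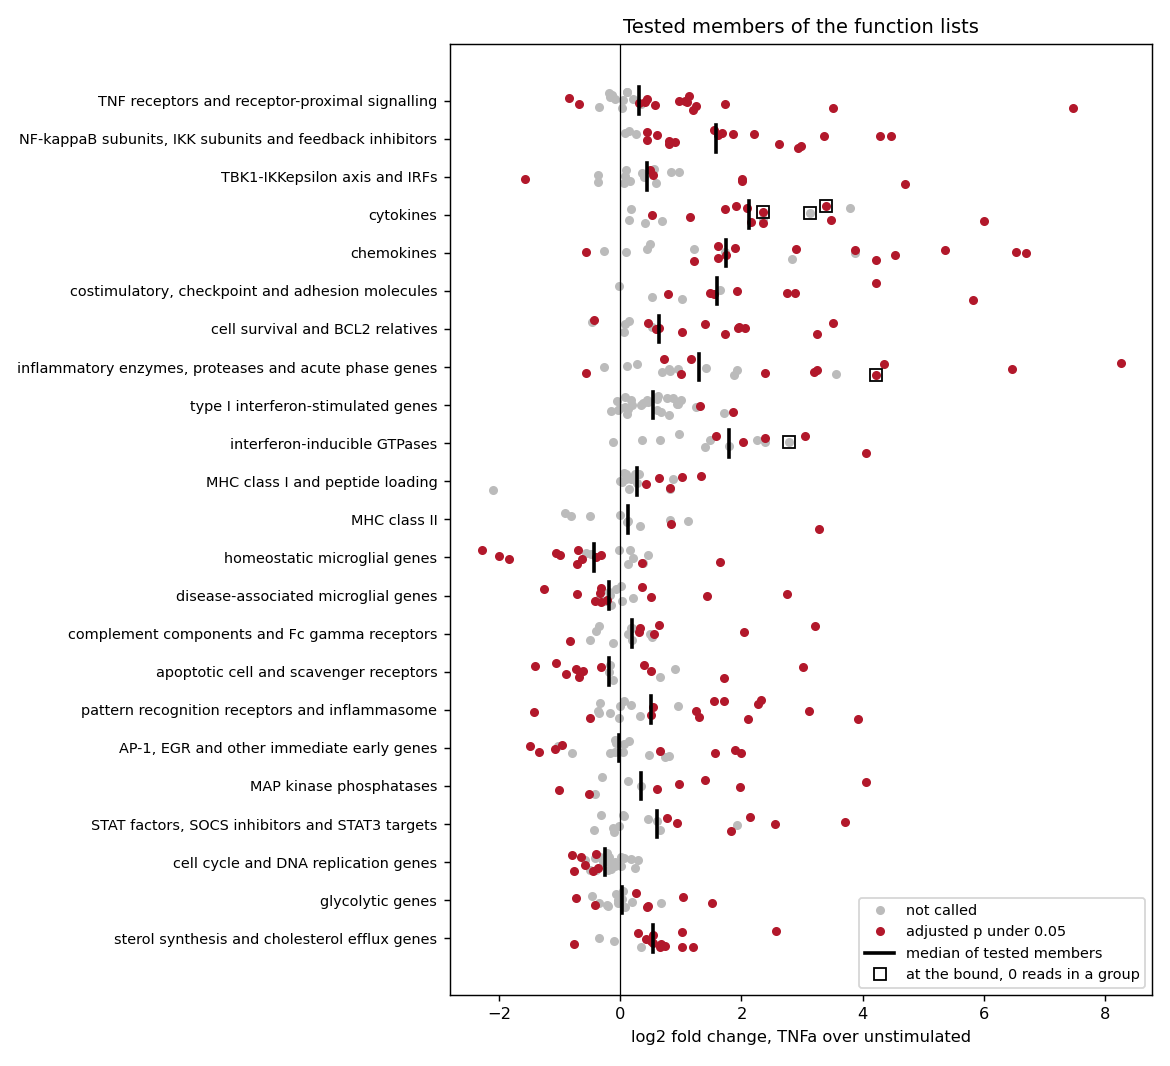
Log2 fold change (TNFa over unstimulated) of each tested member of the 23 function lists, red where the adjusted p was under 0.05, with the median of each list as a black bar. Members with 0 reads in a group are boxed at their bound; the lists of NF-kappaB genes, cytokines, chemokines and adhesion molecules lie to the right of 0, and most called homeostatic microglial and replication genes lie to the left.

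Among sensors of microbial products, Tlr2 and its partners were higher and Tlr7 and Tlr8 lower. Of 24 pattern recognition and inflammasome genes, 11 were higher and 2 lower (23 tested, median 0.51); without the block 0 were lower, and without TNFa library 1 or 2 or unstimulated library 2 or 3, 1. Tlr2, the lipoprotein receptor, stood at 873, 1084 and 947 CPM with TNFa and 64.7, 70.3 and 57.8 CPM without, a change of 3.92 ± 0.32 (edgeR adjusted p 3.16e-06). Nlrp3, the inflammasome sensor, stood at 342, 416 and 433 CPM with TNFa and 38.4, 49.3 and 50.3 CPM without, a change of 3.11 ± 0.16 (3.78e-10). The groups of both genes were far apart. Cd14, a co-receptor for lipopolysaccharide, stood at 1342, 1660 and 1576 CPM with TNFa and 411, 558 and 441 CPM without, a change of 1.71 ± 0.11. Tlr1 was higher by 2.31 and Tlr6 by 0.51, both partners of Tlr2, and Nod2 by 2.101 and Casp4 by 2.28. Tlr8 fell by 1.43 and Tlr7 by 0.49, both sensors of single-stranded RNA, while Tlr4 (-0.34), Tlr9 (-0.35) and Tlr3 (0.96) did not pass.

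Interferon-stimulated genes lay on the higher side, but the share called higher in the main fit was near that of all genes. Of 28 genes of the type I interferon list, 2 were higher and 0 lower (median 0.53), against 8.98% and 8.4% of all genes tested. In all 3 pairs 24 of the 28 were higher with TNFa, against 3805 of all 14626 genes tested. Ifit1, which binds foreign RNA caps, stood at 117, 158 and 502 CPM with TNFa and 40.9, 47.3 and 115 CPM without, and Parp14 at 302, 398 and 561 CPM with TNFa and 140.2, 155 and 205 CPM without. Both genes were highest in the libraries numbered 3 of each group, and the groups did not overlap. The changes were 1.86 ± 0.49 (edgeR adjusted p 0.0225) and 1.32 ± 0.20 (0.00031). The Ifit1 call was lost without TNFa library 3 (0.134), unstimulated library 1 (0.0864) or unstimulated library 2 (0.0984). Rsad2 at 128, 173 and 940 CPM with TNFa and 45.7, 53.1 and 265 CPM without did not pass. The count depended on the fit: without the libraries numbered 3 of every group 16 of the 28 were higher, and with only the TNFa and unstimulated libraries in the fit, 17. With DESeq2 9 were higher, with limma-voom or without TNFa library 1, 4, and without TNFa library 3, unstimulated library 1 or unstimulated library 2, 1. The cause of this difference was not tested.

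Of 17 interferon-inducible GTPases, which attack the vacuoles of intracellular pathogens, 5 were higher and 0 lower (median 1.58, or 1.79 with the member at 0 reads placed at its bound and 2 members without a fold left out). Gbp5 stood at 26.7, 41.5 and 82.8 CPM with TNFa and 1.29, 1.57 and 6.01 CPM without. Gbp2 stood at 85.1, 107 and 183 CPM with TNFa and 8.06, 11.3 and 26.6 CPM without. The library numbered 3 was again highest in each group, and the changes were 4.05 ± 0.55 and 3.05 ± 0.46 (edgeR adjusted p 0.000368 and 0.000742). Without the libraries numbered 3 of every group 8 members were higher, with DESeq2 10 and with only the TNFa and unstimulated libraries in the fit 11. Without unstimulated library 3 the Gbp5 change was 5.04. Of 19 MHC class I and peptide loading genes 5 were higher and 0 lower (median 0.28), with 2 higher without the block, 8 without the libraries numbered 3 and 10 with only the TNFa and unstimulated libraries in the fit. H2-Q4 was higher by 1.33 ± 0.16 and the peptide editor Tapbpl by 1.01 ± 0.15, and H2-Q4 lost its call without the block (edgeR adjusted p 0.0825). Of 11 MHC class II genes 2 were higher, against 8.98% of all genes tested. Cd74, the invariant chain, stood at 38.3, 56.6 and 46.6 CPM with TNFa and 21.5, 30.02 and 26.9 CPM without, and H2-Oa at 3.37, 4.44 and 2.67 CPM with TNFa and 0.774, 0 and 0.281 CPM without. The H2-Oa change of 3.29 ± 0.63 was 4.51 without unstimulated library 1 and 2.58 without unstimulated library 2. The chains H2-Aa, H2-Ab1 and H2-Eb1, which present peptide, were under 2 CPM in every library of both groups.

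Homeostatic microglial genes moved mostly downward. Of 20, 10 were lower and 2 higher, with a median of -0.44. Gpr34, a lysophosphatidylserine receptor, stood at 18.4, 20.02 and 27.4 CPM with TNFa and 95.5, 114 and 104 CPM without. P2ry12, the ADP receptor that steers microglial processes to injury, stood at 4.09, 6.05 and 8.66 CPM with TNFa and 15.5, 26.2 and 24.4 CPM without. P2ry13, its relative, stood at 4.47, 5.86 and 11.4 CPM with TNFa and 24.6, 26.3 and 33.3 CPM without. The groups did not overlap for any of these receptors, and the changes were -2.28 ± 0.18, -1.83 and -1.99 ± 0.39 (edgeR adjusted p 6.40e-08, 1.01e-06 and 0.00322). The P2ry13 change without the libraries numbered 1 of every group was -1.82 with an adjusted p of 0.0805. The transcription factor genes Sall1 (-0.72), Mef2c (-0.63) and Bhlhe41 (-0.996) were lower, as was Mertk (-1.05). Tmem119 went the other way, at 21.3, 29.7 and 12.99 CPM with TNFa and 7.095, 7.23 and 5.51 CPM without, a change of 1.65. Csf1r, the receptor on which microglial survival rests, was higher by 0.36, and Cx3cr1, the fractalkine receptor, stood at 762, 1041 and 903 CPM with TNFa and 810.3, 958 and 977 CPM without, a change of -0.03 ± 0.30 that did not pass. Without the block 5 members were lower, and without the libraries numbered 1 of every group, 6.

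Of 21 disease-associated microglial genes, 4 were higher and 7 lower (median -0.19), so the list did not move one way; without the block 1 was higher and 2 were lower, and without any single library other than unstimulated library 1 or TNFa library 3, 3 or 4 were lower. Cst7, a cystatin, was higher at 3.71, 4.83 and 6.63 CPM with TNFa and 0.839, 0.181 and 1.24 CPM without, and Lilrb4a, an inhibitory receptor, at 124, 143 and 31.2 CPM with TNFa and 43.0, 64.1 and 10.23 CPM without. The Lilrb4a groups overlapped because both libraries numbered 3 were low, while within each pair the TNFa library was higher. The changes were 2.74 ± 0.55 and 1.43 ± 0.20. Cst7 without the libraries numbered 1 of every group had an edgeR adjusted p of 0.0671, and Lilrb4a without the block 0.534. Ank (-1.25), Fabp5 (-0.71), Lgals3 (-0.41) and Trem2 (-0.31) fell, and Apoe (0.22), Spp1 (-0.19) and Itgax (-0.16) did not pass.

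Of 17 genes of apoptotic cell and scavenger receptors and bridging proteins, 8 were lower, 4 were higher and 5 did not pass (median -0.19). Cd14, given above with the sensors, was among the 4 higher. Without the block 6 were lower and 2 higher. Gas6 (-0.90) and Pros1 (-0.66), the bridging ligands of the receptor Mertk, were lower along with it, as were Cd300lf (-1.40) and Scarb1 (-0.69). Axl, the related receptor, was higher by 0.52. Marco, a scavenger receptor of macrophages, stood at 44.4, 34.6 and 17.2 CPM with TNFa and 5.87, 3.44 and 2.53 CPM without, a change of 3.02 ± 0.52 (edgeR adjusted p 0.00102). Of 17 complement and Fc receptor genes, 6 were higher and 1 lower, and without the block 3 were higher. C3, the central complement component, stood at 58.6, 74.2 and 78.3 CPM with TNFa and 10.4, 5.55 and 7.08 CPM without. C5ar1, the C5a receptor, stood at 278, 335 and 380 CPM with TNFa and 63.7, 73.4 and 114 CPM without. Their groups did not overlap, and the changes were 3.21 ± 0.27 and 2.04 ± 0.32, while Fcgr3 fell by 0.83.

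The 8 deepest falls were taken from called genes whose log2 CPM averaged 2 or more and whose groups did not overlap, predicted genes aside. Slc46a3, a lysosomal transporter, stood at 2.14, 2.64 and 2.30 CPM with TNFa and 18.8, 29.3 and 25.2 CPM without. Cd28, best known as a costimulatory receptor of T cells, stood at 1.95, 1.87 and 1.71 CPM with TNFa and 14.26, 20.5 and 20.9 CPM without. They fell by 3.36 ± 0.20 and by 3.29 ± 0.34 on the log2 scale (edgeR adjusted p 1.11e-09 and 1.01e-06). In CPM of the library total, the T cell marker list summed to 6.94 to 13.9 with TNFa and 7.76 to 17.2 without. Of its 2 tested genes 0 were called, and Cd3e, Cd3d and Cd3g were too low to test. Cnr2, the cannabinoid receptor of immune cells, stood at 3.23, 2.51 and 0.855 CPM with TNFa and 14.32, 18.03 and 18.7 CPM without, a change of -2.96 ± 0.39. Baiap2l2, of the membrane-bending I-BAR family, fell by 3.19 ± 0.31, and Slco2b1, an organic anion transporter, by 2.74 ± 0.26. Minar1 (-2.89), Rtn4rl1 (-2.88), a relative of the Nogo receptor, and Asb10 (-2.75) made up the rest.

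**Figure D4:**
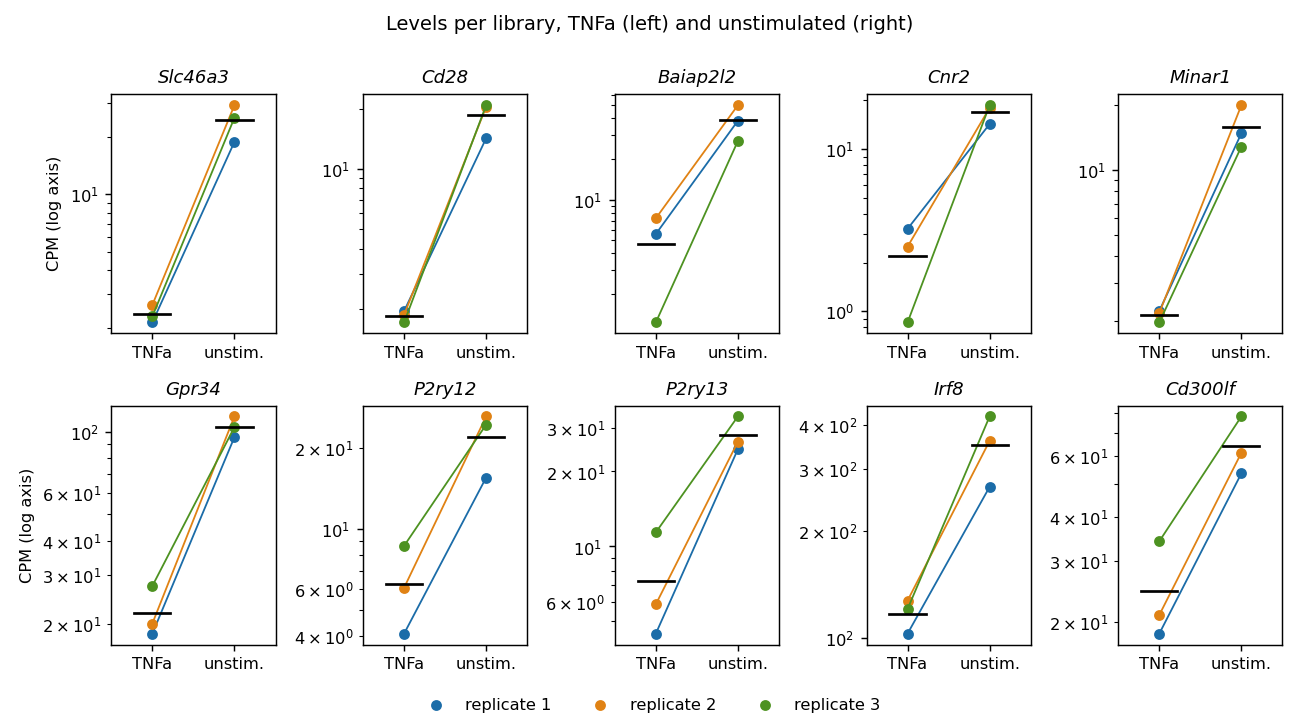
CPM (log axis, a scale of its own in each panel) of 10 genes lower with TNFa, in the TNFa libraries (left) and unstimulated libraries (right), with the replicates coloured and joined by number and the group mean as a bar. Every TNFa value lies below every unstimulated value, as for Slc46a3 with 2.14 to 2.64 CPM against 18.8 to 29.3 CPM. For Slc46a3, Cd28, Baiap2l2, Cnr2 and Minar1 this was a condition of their choice.

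Some of the most raised genes, chosen in the same way, lay outside the groups above. Clec4e, the Mincle receptor for mycobacterial glycolipid, stood at 182, 202 and 283 CPM with TNFa and 1.87, 0.904 and 1.29 CPM without. Gpr84, a receptor for medium-chain fatty acids, stood at 273, 345 and 375 CPM with TNFa and 4.97, 4.88 and 2.87 CPM without. Cd69, an early activation marker of leukocytes, stood at 67.7, 90.9 and 139 CPM with TNFa and 0.645, 0.362 and 1.52 CPM without. The changes were 7.35 ± 0.40, 6.31 ± 0.27 and 6.84 ± 0.81 (7.69 for Cd69 without unstimulated library 3). Cdc42ep2, an effector of the cytoskeletal GTPase CDC42, was higher by 6.13 ± 0.46.

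Of 11 MAP kinase phosphatases 5 were higher and 2 lower (median 0.35). Dusp2 stood at 24.7, 37.2 and 30.6 CPM with TNFa and 2.84, 1.27 and 1.57 CPM without, and Dusp16 was higher by 1.98 ± 0.14, while Dusp3 (-1.004) and Dusp7 (-0.52) fell. Of 18 STAT and SOCS genes 6 were higher and 0 lower (17 tested, median 0.61). Socs3, the inhibitor of receptors of the interleukin 6 family, stood at 43.3, 48.5 and 39.3 CPM with TNFa and 7.48, 0.844 and 2.08 CPM without, a change of 3.71 ± 0.56 (edgeR adjusted p 0.000705; 0.0516 with only the 2 groups in the fit); it was 4.86 without unstimulated library 1. Pim1 was higher by 2.55 ± 0.32, Cebpb by 2.15 and Cebpd by 1.83. Immediate early genes were split, 4 higher and 4 lower of 20 (median -0.01), or 3 and 2 without the block. Junb at 546, 677 and 536 CPM with TNFa and 139.8, 153 and 144 CPM without, and Fos at 273, 340 and 363 CPM with TNFa and 79.2, 93.4 and 87.3 CPM without, were higher by 2.00 ± 0.12 and 1.90 ± 0.19. Jun (-1.08), Atf3 (-1.34), Egr1 (-0.95) and Nr4a1 (-1.48) were lower.

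Of 16 genes of sterol synthesis and cholesterol efflux 12 were higher and 1 lower (median 0.54); without the block 5 were higher. Nr1h3, the oxysterol receptor LXRalpha, stood at 62.9, 76.2 and 111 CPM with TNFa and 10.1, 13.1 and 19.3 CPM without, a change of 2.57 ± 0.24 (edgeR adjusted p 8.38e-07). Of the efflux transporters, Abca1 was higher by 1.21 ± 0.36 (edgeR adjusted p 0.0427), a call lost without any one of the 6 libraries (0.0968 to 0.153) and without the block (0.12), and Abcg1 was lower by 0.75. Of 19 glycolytic genes 5 were higher and 2 lower (median 0.03), against 8.98% and 8.4% of all genes tested. Without the block 3 were higher and 0 lower, and with total-count scaling 3 were higher and 6 lower. Leaving out TNFa library 1 or 2 or unstimulated library 1 or 2 gave 2 or 3 higher. Slc2a1, the glucose transporter GLUT1, stood at 159, 181 and 169 CPM with TNFa and 55.0, 60.2 and 63.1 CPM without, and Hif1a at 146, 166 and 179.96 CPM with TNFa and 78.8, 80.2 and 79.8 CPM without. Their changes were 1.51 ± 0.13 and 1.04 ± 0.21, with an adjusted p of 0.0592 for Hif1a without the libraries numbered 1 of every group. Of 26 cell cycle genes 0 were higher and 7 lower (median -0.25). All 7 belong to DNA replication: Pcna stood at 248, 267 and 233 CPM with TNFa and 359.7, 476 and 471 CPM without, and the helicase genes Mcm2 (-0.76), Mcm3, Mcm4, Mcm5, Mcm6 and Mcm7 fell with it. The mitotic genes Mki67 (0.25), Top2a (0.07) and Ccnb1 (-0.08) did not pass. Without the block, unstimulated library 2 or unstimulated library 3, 4 of the 26 were lower, and without the libraries numbered 1, 2 or 3 of every group 3, 3 and 4.

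Set directly against the other single cytokines, TNFa differed from IFNg in 3293 of 14626 genes (22.5%), from IFNa in 3912 (26.7%) and from IL6 in 2006 (13.7%). These contrasts share the TNFa libraries. Ikbke averaged 192 ± 29.4 CPM with TNFa, 42.9 ± 1.32 with IFNg, 21.5 ± 5.94 with IFNa, 15.6 ± 4.57 with IL6 and 7.39 ± 2.01 in unstimulated cells (SD, n = 3 each). It was higher with TNFa than with IFNg by 2.15 ± 0.18, than with IFNa by 3.15 ± 0.19 and than with IL6 by 3.62 ± 0.20 (log2, SE; edgeR adjusted p 2.36e-07, 3.15e-09 and 1.82e-09). Of the 20 NF-kappaB genes, 10 were higher and 2 lower with TNFa than with IFNg, where 8.79% of all genes tested were higher and 13.7% lower. Against IFNa 12 were higher and 1 lower (11.9% and 14.9% of all genes), and against IL6 14 were higher and 2 lower (6.73% and 6.98%). Il1b averaged 85.7 ± 25.1 CPM with TNFa, and at most 5.37 ± 2.69 CPM with any other single cytokine, the highest being IL6. Clec4e was higher with TNFa than with IFNg by 6.51 ± 0.37, than with IFNa by 7.199 ± 0.39 and than with IL6 by 6.71 ± 0.38.

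Other genes raised by TNFa compared differently with the interferons. Tnf averaged 68.2 ± 35.8 CPM with TNFa, 101 ± 50.7 with IFNg, 46.3 ± 26.3 with IFNa and 9.19 ± 2.06 with IL6, and did not pass against IFNg (-0.58 ± 0.24, edgeR adjusted p 0.112) or IFNa (0.58 ± 0.25, 0.101). Icam1 averaged 789 ± 126.5 CPM with TNFa and 740 ± 177 with IFNg, with a difference of 0.11 ± 0.25 (0.826), but 171 ± 67.4 with IFNa, below TNFa by a log2 difference of 2.24 ± 0.26 (3.4e-05). Cd40 was lower with TNFa than with IFNg by 1.15 ± 0.32 (0.0204). Gbp2 averaged 125 ± 51.2 CPM with TNFa, 2331 ± 402 with IFNg and 714 ± 198 with IFNa. Of the 28 interferon-stimulated genes, 17 were lower with TNFa than with IFNg and all 28 than with IFNa, and 0 were higher. All 17 GTPases were lower with TNFa than with either interferon. Socs3 was lower with TNFa than with IL6 by 2.04 ± 0.46 and than with IFNg by 1.69 ± 0.46 (edgeR adjusted p 0.0118 and 0.0204), and higher than with IFNa by 2.39 ± 0.51 (0.00421). Of the lowered genes, Gpr34 averaged 21.95 ± 4.82 CPM with TNFa, 19.4 ± 5.21 with IFNg and 20.2 ± 6.72 with IFNa, with differences of 0.18 ± 0.18 and 0.14 ± 0.18 that did not pass. P2ry13 was lower with TNFa than with IFNg by 3.58 ± 0.40 and than with IFNa by 3.37 ± 0.40. Its means were 7.24 ± 3.66 CPM with TNFa, 82.7 ± 4.30 with IFNg and 70.5 ± 14.5 with IFNa. Both interferon means lay above the 28.1 ± 4.60 CPM of unstimulated cells. Slc46a3 was lower with TNFa than with IFNg, IFNa and IL6 by 2.27, 2.77 and 2.01. Its means with those cytokines, 11.4, 16.1 and 9.28 CPM, were also below the 24.4 CPM of unstimulated cells.

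**Figure D5:**
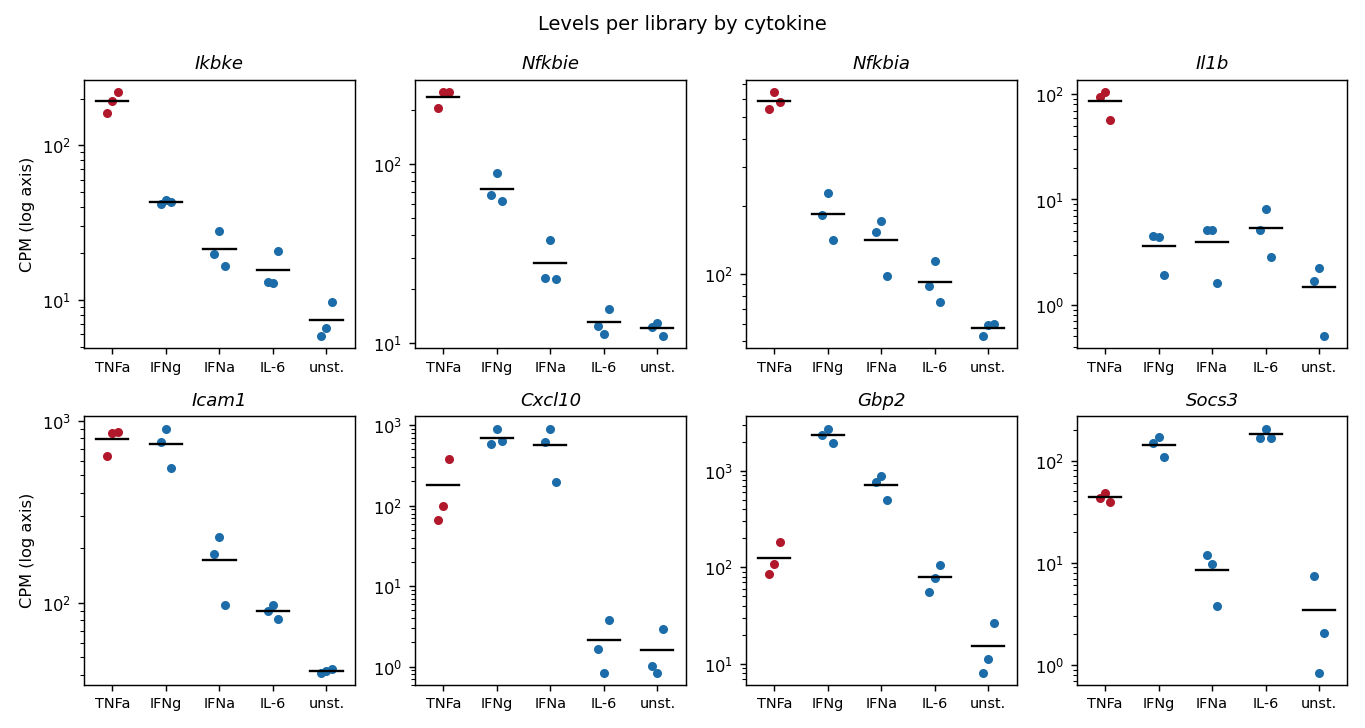
CPM (log axis, a scale of its own in each panel) of 8 genes in the 3 libraries of each group (points) with the group mean (bar), TNFa in red, the other single cytokines and unstimulated cells in blue. The means of Ikbke, Nfkbie, Nfkbia and Il1b are highest with TNFa, and those of Cxcl10 and Gbp2 are higher with either interferon than with TNFa.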

How the data were processed

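RNA-seq libraries of cultured neonatal MRL/lpr microglia were compared. Per the labels' protocols, RNA went into strand-specific libraries (NEBNext Ultra II Directional). The submitters' processing notes name cutadapt 2.1, STAR 2.7.1a and mm10. The deposited table holds raw read counts per gene, made by the authors with no normalisation. How reads were assigned to genes, and with which strand setting, was not given in the sources used here. Values of antisense, overlapping or related genes (Gbp6 and Gbp10, Tgtp1 and Tgtp2, Ccl2 and Ccl12, the H2-Q and Bcl2a1 genes) are therefore uncertain. The table's gene length column was not needed for comparisons between groups. Of 55434 genes, 99.41% matched GENCODE M21, which gave the coordinates, and 0 were mitochondrial.

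Counts of the 18 neonatal libraries were fitted together with edgeR 4.0.16 under R 4.3.3 (genes kept by filterByExpr, TMM scaling, robust quasi-likelihood F test, group and library number as terms, 10 residual degrees of freedom, common biological coefficient of variation 0.195). P-values were adjusted by Benjamini-Hochberg over all 14626 genes; calls were those with adjusted p under 0.05. Each standard error was derived from the log2 fold change and its F statistic (|log2 fold change| / sqrt F). The block on library number was part of how the comparison was set. All 45 same-numbered pairs of libraries deviated together from their group means (correlations of 0.184 to 0.687). For TNFa and unstimulated libraries these were 0.351 to 0.65, against -0.522 to 0.11 between different numbers. Deviations from a group mean cancel over the group, so the different-number values are not independent of the same-number ones. No libraries were identical. Where a group had 0 reads, the fold is a bound with the 0 set to 3 counts summed over its libraries, which covers counting error only.

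The members, lists and tests were chosen with earlier results of these data known. The rule for named genes took Ikbke, Tnf, Tnfrsf1a, Tnfrsf1b and Fas, the 2 called members of each list with the largest change, and the 8 higher and 8 lower called genes that changed most, given a mean log2 CPM of 2 or more, the same sign in all 3 pairs and no overlap, predicted genes skipped. Other genes were named after their values were seen. On simulated counts with 200 changed genes (14288 genes, TNFa against unstimulated), the test recovered 67% of 2-fold and 83% of 4-fold changes, with 1.96% of its calls false. The counts were drawn from the means and dispersions of the same model, and only genes above a minimum mean count were changed. These shares therefore hold for counts that follow the model, and not for genes of few reads or the false share of the real calls. Alternatives were no block, DESeq2 1.42.0, limma-voom (limma 3.58.1), RLE size factors, total counts, no filter, a filter at 1 CPM in 3 libraries, the TNFa and unstimulated libraries alone, and each library left out; leaving out all libraries of a number, or IL6 library 2, was added after the data were seen.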

Additional observations from a re-analysis of the deposited data

How the results depend on the processing

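The reported values come from the fit with the block; without the replicate block 1184 genes were called against unstimulated cells (640 higher, 544 lower), 1868 against IFNg, 2379 against IFNa and 1026 against IL6. Leaving out each TNFa or unstimulated library gave 1747 to 2086 called genes, 931 to 1155 higher and 816 to 1034 lower, the lowest without unstimulated library 2. Without IL6 library 2, the shallowest of the fit, 2680 genes were called (1390 higher, 1290 lower). Leaving out the libraries numbered 1 of every group gave 1460 (775 higher, 685 lower), and those numbered 3 gave 1662 (989 higher, 673 lower). DESeq2 called 2938 genes, limma-voom 2809, RLE scaling 2546, total counts 2611, no filter 2560, the 1 CPM filter 2577 and the fit of the 2 groups alone 3449, each within 1.5 times the reported count. Of the 62 genes named by rule, Tnfrsf1a, which was not called, changed sign, at -0.037 with total counts and -0.025 without the libraries numbered 3 of every group, and ranged from -0.12 (without TNFa library 3) to 0.14 (without TNFa library 1) when single libraries were left out. No other gene named by rule changed sign under these settings. Calls of Fas, Il12b, Nos2, Ifit1, Abca1, Tnfrsf1b, Irf1, Socs3, P2ry13, Cst7, Hif1a, H2-Q4 and Lilrb4a were lost under at least 1 setting; the cause was not tested. With 3 libraries a group, genes of few reads such as Il12b, Il6, Nos2 and Fas have wide errors.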

Other observations

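Some strongly changed genes belonged to none of the lists, and the following were picked after their values were seen. Marcksl1, an actin-binding substrate of protein kinase C, averaged 2068 ± 336 CPM with TNFa and 108 ± 19.5 CPM in unstimulated cells (SD, n = 3 each), a log2 change of 4.25 ± 0.23 (SE). Fscn1, the actin-bundling protein fascin, averaged 1648 ± 213 CPM with TNFa and 117 ± 41.4 CPM without, a change of 3.89 ± 0.28. Ehd1, which returns receptors from endosomes, averaged 822 ± 107 CPM with TNFa and 63.3 ± 17.6 CPM without, a change of 3.72 ± 0.15. The kinase gene Src (3.01) and the actin regulator gene Vasp (2.28) were higher as well. Of receptors for formyl peptides, Fpr1 averaged 45.8 ± 16.8 CPM with TNFa and 1.33 ± 0.709 CPM without, and Fpr2 averaged 38.7 ± 14.2 CPM with TNFa and 2.54 ± 0.689 CPM without. Slc7a11, the cystine-glutamate exchanger, averaged 286 ± 65.2 CPM with TNFa and 28.0 ± 2.43 CPM without, a change of 3.32 ± 0.28.

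Cebpa, a transcription factor gene of myeloid differentiation, was among the lowered ones. It averaged 153 ± 56.9 CPM with TNFa and 922 ± 113 CPM in unstimulated cells, a change of -2.61 ± 0.37 (edgeR adjusted p 0.000433), while its relatives Cebpb and Cebpd were higher by 2.15 and 1.83. Hpgd, which degrades prostaglandins, averaged 76.1 ± 12.8 CPM with TNFa and 361 ± 44.9 CPM without, a change of -2.27 ± 0.23, beside the rise of the prostaglandin E synthase gene Ptges. Vsir, an inhibitory receptor of immune cells, averaged 93.0 ± 19.1 CPM with TNFa and 418 ± 60.3 CPM without, and the growth factor genes Hgf (-2.41) and Tgfa (-2.37) were also lower.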
